A study of Homo sapiens with 18 samples.

Results

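The 7 enzymes described here carry out steps of glycolysis: GPI early in the pathway, and ALDOA, ALDOC, TPI1, GAPDH, PGK1 and PKM in its middle and at its end. They were taken by name, each through its Ensembl identifier, and all 7 were found among the 20263 genes of the count table and passed the filter on low counts. RNA sequencing was run on 18 libraries from wild-type human cancer cell lines whose labels name the liver line MHCC-97H, the breast line MDA-MB-231 and the colon line HCT-116. Under each label 3 libraries came from cells given 20 nM H3B-8800, an oral compound that acts on the SF3b splicing complex, and 3 from cells given DMSO, its solvent, both for 24 h in high-glucose medium with serum. Whether the 3 libraries are from separate cultures is not stated, and p-values then measure only the spread between these samples, which may be technical.

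Glycolysis splits glucose into pyruvate in the cytosol and yields ATP and NADH. GPI turns glucose 6-phosphate into fructose 6-phosphate, the aldolases ALDOA and ALDOC split fructose 1,6-bisphosphate, TPI1 interconverts the 2 triose phosphates, and GAPDH oxidises glyceraldehyde 3-phosphate. PGK1 makes the first ATP of the pathway and PKM, the pyruvate kinase of proliferating cells, makes the last. Cancer cells often express these enzymes highly, and several of their genes are known targets of the hypoxia factor HIF-1 and of MYC.

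Library totals ran from 28232315 to 41488278 counts, and the 7 enzymes had between 6456 and 750286 counts in a library. Counting error, from the mean count of a group, was 0.123% to 0.401% for 6 enzymes. For ALDOC it was 0.785% to 1.21%, which is not small beside its narrowest spreads between libraries, 1.24% with H3B-8800 under MHCC-97H and 2.18% with DMSO under MDA-MB-231. Levels are in CPM, a count relative to its library's total after TMM scaling, which corrects for library composition, and levels of different genes are compared per kb of the principal transcript. Libraries with the HCT-116 label and libraries with the MDA-MB-231 label had one profile of cell type markers, summed here relative to library totals without TMM: 8 intestinal epithelium markers summed to 1608 to 1676 CPM under MDA-MB-231 and 1627 to 1711 CPM under HCT-116, with 1 of the 8 at 0 counts under each. Under the MHCC-97H label 6 of the 8 were at 0 and the sum was 2.34 to 3.54 CPM. Liver markers went the same way, with 6 of 8 at 0 and a sum of 4.12 to 5.51 CPM under MHCC-97H, against 192 to 239 CPM under MDA-MB-231 and 208 to 253 CPM under HCT-116. Mesenchymal markers summed to 1383 to 1517 CPM under MHCC-97H, against 8668 to 9339 CPM under MDA-MB-231 and 8449 to 10023 CPM under HCT-116, and breast markers to 7.04 to 9.35, 72.6 to 83.5 and 75.3 to 87.7 CPM in the same order of labels. FN1 carried most of the mesenchymal sum under MDA-MB-231 and HCT-116, with DMSO means of 128 CPM under MHCC-97H, against 8426 and 9071 CPM (TMM scaled). VIM went the other way, at 1371 CPM under MHCC-97H, against 18.7 and 20.3 CPM, and TWIST1 stood at 13.6 CPM there and at 0 counts in the other DMSO libraries. Intestinal markers under a breast label, and liver markers at or near 0 under a liver label, go against those labels. Groups are therefore named by their labels throughout, and the labels HCT-116 and MDA-MB-231 are not read as 2 cell types.

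The enzyme genes lie on 6 chromosomes (GRCh38, GENCODE 29 gene bounds). GPI (ENSG00000105220) lies on chromosome 19 from 34359480 to 34402413, ALDOA (ENSG00000149925) on chromosome 16 from 30064164 to 30070457, and ALDOC (ENSG00000109107) on chromosome 17 from 28573115 to 28577264. TPI1 (ENSG00000111669) and GAPDH (ENSG00000111640) share chromosome 12, from 6867119 to 6870948 and from 6533927 to 6538374. PGK1 (ENSG00000102144) lies on chromosome X from 77910739 to 78129296, and PKM (ENSG00000067225) on chromosome 15 from 72199029 to 72231822. Counts span all exons of a gene, so the PKM1 and PKM2 messages, which differ by a mutually exclusive exon, are summed in the value of PKM.

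RefSeq promoter windows (GRCh38.p14, 250 bases before to 50 after a transcription start) matched all 7 genes with 10 windows, 3 for ALDOA and 2 for TPI1. The letters searched were ACGTG and GCGTG, the core to which HIF-1 is known to bind, on both strands. At least one core was present in 9 of the 10 windows, against 48.4% of all 35097 windows in the table, and each of the 7 genes had a window with it. CACGTG, the E-box read by MYC and ChREBP, overlaps ACGTG on both strands and so counts as a pair of cores; it was present in 3 of 10 windows, against 7.25% of all. GGGCGG, the SP1 box, was present in 7 of 10, against 45.0% of all. These shares of all windows were not matched for GC content, whose median over all windows was 58.7%. Windows of ALDOC, TPI1, GAPDH, PGK1 and PKM lay above it, at 70.7% in GAPDH and PGK1. That of GPI lay below, at 56.7%, and those of ALDOA lay on both sides. The part of GC content in the matches was not tested. Some ALDOA windows overlap, and no share per gene was computed over all genes. A match is a description, not a site or a cause. The windows of 4 genes are shown because these genes differ in the number of core matches, 5 in ALDOC, 4 in PGK1, 2 in GAPDH and 1 in PKM; capitals mark the cores on either strand.
ALDOC (chr17:28576846-28577145, minus strand): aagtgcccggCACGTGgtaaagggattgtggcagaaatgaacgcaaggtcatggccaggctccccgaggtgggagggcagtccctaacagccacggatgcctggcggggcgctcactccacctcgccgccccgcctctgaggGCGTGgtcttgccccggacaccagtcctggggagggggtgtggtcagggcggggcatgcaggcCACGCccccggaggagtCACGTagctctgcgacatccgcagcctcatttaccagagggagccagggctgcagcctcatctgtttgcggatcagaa
GAPDH (chr12:6535014-6535313, plus strand): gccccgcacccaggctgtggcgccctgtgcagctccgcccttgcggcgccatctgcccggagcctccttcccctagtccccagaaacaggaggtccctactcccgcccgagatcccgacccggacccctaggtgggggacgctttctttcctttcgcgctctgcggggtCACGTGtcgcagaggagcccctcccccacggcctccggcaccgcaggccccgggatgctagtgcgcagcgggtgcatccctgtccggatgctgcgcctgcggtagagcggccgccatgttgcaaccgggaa
PGK1 (chrX:78103998-78104297, plus strand): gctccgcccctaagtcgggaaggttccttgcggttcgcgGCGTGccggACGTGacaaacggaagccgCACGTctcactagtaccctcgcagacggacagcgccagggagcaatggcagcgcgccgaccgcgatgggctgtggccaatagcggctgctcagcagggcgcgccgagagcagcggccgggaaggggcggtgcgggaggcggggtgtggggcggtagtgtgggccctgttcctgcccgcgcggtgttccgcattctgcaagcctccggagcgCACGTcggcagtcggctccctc
PKM (chr15:72231141-72231440, minus strand): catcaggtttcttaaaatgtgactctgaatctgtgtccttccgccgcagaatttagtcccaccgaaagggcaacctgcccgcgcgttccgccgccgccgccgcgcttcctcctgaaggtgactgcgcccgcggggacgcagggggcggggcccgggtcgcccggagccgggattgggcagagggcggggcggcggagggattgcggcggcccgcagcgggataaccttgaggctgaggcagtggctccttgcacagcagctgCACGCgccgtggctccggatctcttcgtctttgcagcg
The single capital stretch of the GAPDH window is a CACGTG, and ALDOC also holds one near its 5′ end. No relation between these letters and the response to H3B-8800 was tested.

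In DMSO libraries, per kb of principal transcript, GAPDH was the most abundant of 14223 genes with a length under the MHCC-97H label, at 16839 ± 484 CPM per kb (SD, n = 3, as for all group values below). ALDOA followed at 3980.1 ± 290 CPM per kb. TPI1 at 2364 ± 118 and PGK1 at 2364 ± 78.0 CPM per kb did not differ beyond their spread. PKM at 1972 ± 92.2, GPI at 1428 ± 23.9 and ALDOC at 301 ± 10.7 CPM per kb closed the order. This order holds for the principal transcript length; counted over all annotated exons PGK1 came right after GAPDH and before ALDOA under MHCC-97H, and PKM stayed behind TPI1.

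PKM held another place under the other labels when principal transcripts were used. Its DMSO level of 1668 ± 35.8 CPM per kb under MDA-MB-231 and 1752 ± 122 CPM per kb under HCT-116 made it the second of the 7, before TPI1 at 1476 ± 41.2 and 1573 ± 99.3 CPM per kb under the same labels. Over all annotated exons PKM was 4 in order under both labels, after GAPDH, PGK1 and TPI1. By principal transcript ALDOA, PGK1, GPI and ALDOC followed TPI1, and GAPDH, first among the 7, ranked 8 among all genes. Of the summed level of the 7 enzymes per kb, PKM made up 6.30% to 7.04% in the 6 libraries labelled MHCC-97H, against 12.3% to 12.9% under MDA-MB-231 and 12.6% to 13.4% under HCT-116. The MHCC-97H range lay apart from the others, while those of MDA-MB-231 and HCT-116 overlapped. GAPDH made up 56.7% to 57.9%, 54.7% to 56.7% and 54.2% to 55.4% under the same labels. ALDOC, the aldolase known from brain, made up 6.77% to 7.33% of the 2 aldolases per kb under MHCC-97H, against 7.50% to 8.16% and 7.57% to 8.42%.

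Set against the other labels, DMSO libraries labelled MHCC-97H had more of these messages. All 7 were called higher than under MDA-MB-231 (adjusted p under 0.05 in edgeR), where 39.5% of all 14234 genes tested were called higher. ALDOA stood at 3.30-fold (log2 difference 1.72, SE 0.081, adjusted p = 1.1e-11), ALDOC at 3.06-fold, PGK1 at 2.81-fold, GPI at 2.68-fold and GAPDH at 2.36-fold. TPI1 at 1.60-fold and PKM at 1.18-fold (log2 difference 0.24, SE 0.078, adjusted p = 0.00955) stood lowest. Against HCT-116, 6 of 7 were called higher, with 39.5% of all genes, and the order of the folds was the same, ALDOA at 3.11-fold, ALDOC at 2.69-fold, PGK1 at 2.61-fold, GPI at 2.45-fold, GAPDH at 2.28-fold and TPI1 at 1.50-fold. PKM was not called there, at 1.13-fold (log2 difference 0.17, 95% interval 0.0041 to 0.34, adjusted p = 0.0545). It was called in 7 of 11 other settings, among them the removal of trends on GC content and length at 0.45 (adjusted p = 9.9e-05). The 7 include the replicate block, alone (0.27) or with those trends removed (0.52). With the block, labels are compared at replicate 1 and not at group means, so these values do not bear on this call. PKM was also called without HCT-116 DMSO replicate 2 (adjusted p = 0.0257), H3B-8800 replicate 1 (0.0357) or H3B-8800 replicate 2 (0.00282) of that label. DMSO libraries with the MDA-MB-231 label, set against those with the HCT-116 label, differed in none of the 7 by an adjusted p under 0.05, where 2 genes in all (0.0141%) were called higher and 3 (0.0211%) lower; 2 of the 7, GPI and ALDOC, had an unadjusted p under 0.05, at log2 differences of -0.13 and -0.19. With library totals in place of TMM the values for MHCC-97H moved down by a median of 0.28 log2 units against MDA-MB-231 and 0.26 against HCT-116. PKM then stood at -0.040 and -0.088, so its direction depends on the scaling, while TPI1 and the other 5 kept theirs. With the trends on GC content and length removed, all 7 were called higher under MHCC-97H against either label, but the sizes and their order moved. Against MDA-MB-231 PGK1 then stood at 2.12, GPI at 1.80, ALDOA at 1.56, ALDOC at 1.23, GAPDH at 0.75, PKM at 0.52 and TPI1 at 0.24. Against HCT-116 the order was the same, with PGK1 at 1.98, GAPDH at 0.70 and TPI1 at 0.15.

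The 7 enzymes were also summed as a share of all counts, which is scaling by library totals without TMM. They made up 4.17% to 4.22% of the library in H3B-8800 libraries labelled MHCC-97H, against 4.61% to 4.75% in DMSO libraries of that label. The sum weighs abundant enzymes most: GAPDH alone made up 1.96% to 2.00% of these DMSO libraries. Under MDA-MB-231 the share was 2.67% to 2.81% with H3B-8800 and 2.47% to 2.60% with DMSO, and under HCT-116 it was 2.52% to 2.98% with H3B-8800 and 2.50% to 2.79% with DMSO. The treated range lay below the DMSO range under the first label, above it under the second, and across it under the third.

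**Figure D1:**
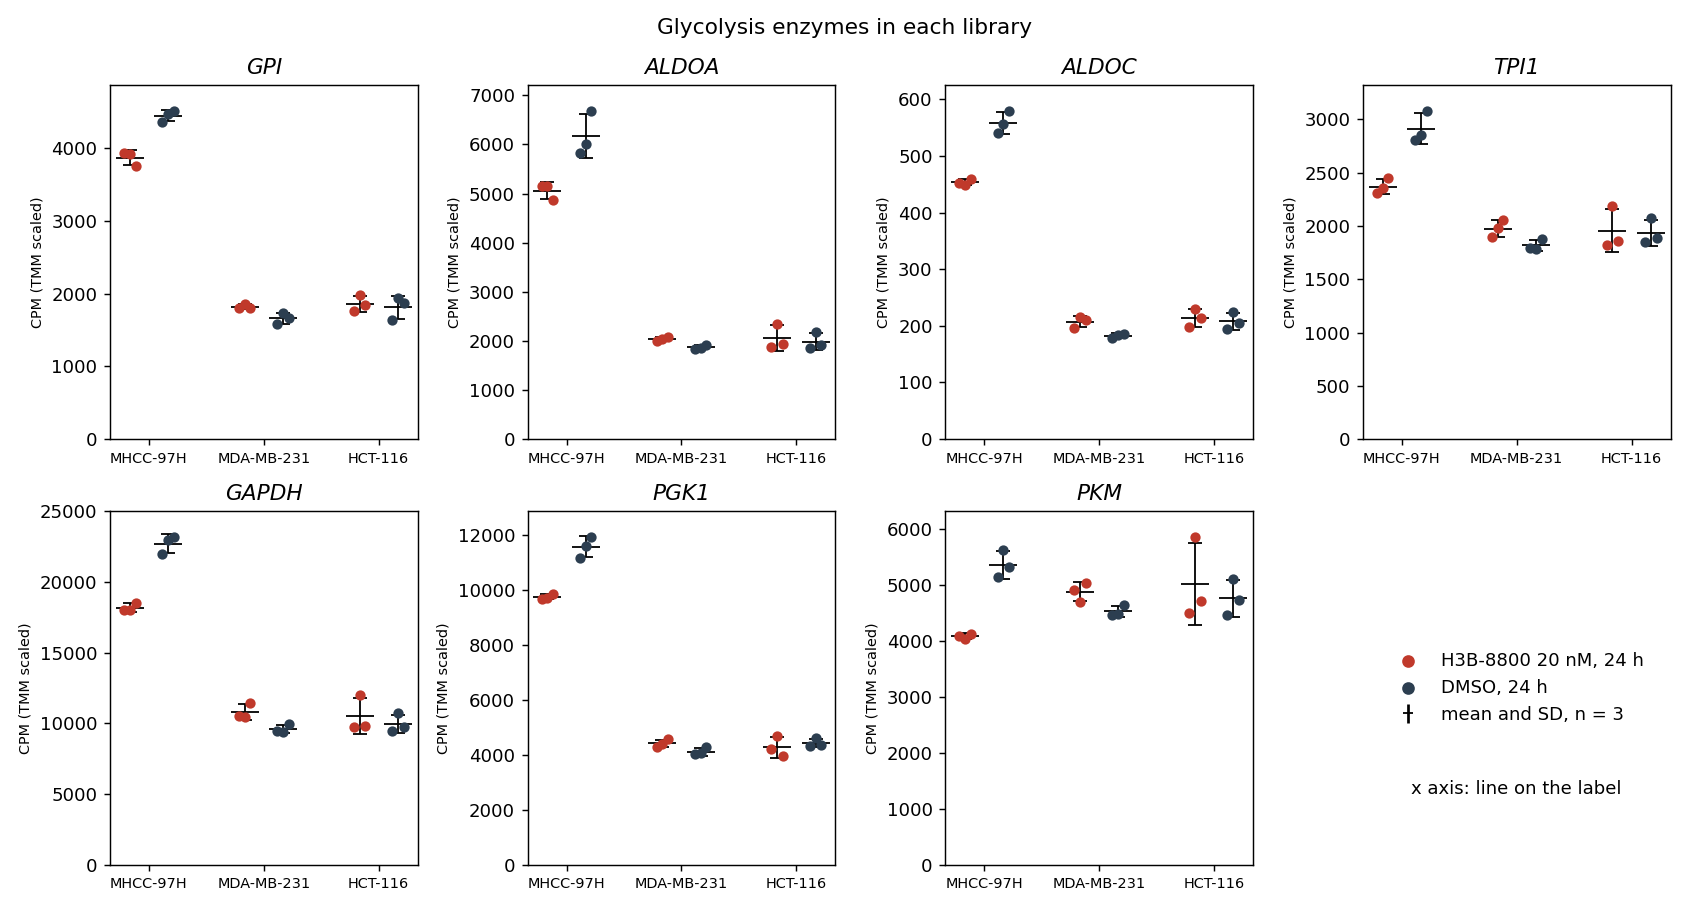
Level of each enzyme in every library, in CPM after TMM scaling on an axis from 0, with H3B-8800 (red) left of DMSO (dark) under each line label and the mean and SD of 3 libraries. Under MHCC-97H all 7 treated groups lie below their DMSO groups; for PKM the treated libraries sit at 4029 to 4130 CPM and the DMSO libraries at 5133 to 5628 CPM.

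Under the MHCC-97H label all 7 enzymes fell with H3B-8800, with changes of -13.0% for GPI to -23.8% for PKM, and in each of them the 3 treated libraries lay below the 3 DMSO libraries. Of all 14234 genes tested, 14.7% were called lower and 28.0% had every treated library below every DMSO library. The median log2 fold change of the 7 was -0.30, beside -0.06 over all genes. With bulk RNA, fewer cells expressing a gene and less RNA per cell cannot be told apart.

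GPI had the smallest change. It stood at 3939, 3922 and 3759.8 CPM in H3B-8800 libraries, against 4367, 4472 and 4512 CPM in DMSO libraries (log2 fold change -0.20, SE 0.057, adjusted p = 0.0189). The groups were separate by more than the spread within either. GPI also acts outside the cell as autocrine motility factor. AC092073.1, a gene that shares 5.10% of its exonic bases, had 304 counts over the 18 libraries.

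ALDOA, the aldolase of muscle and most cultured cells, had 5156, 5159 and 4866 CPM with H3B-8800, against 5824, 6007 and 6677 CPM with DMSO (log2 fold change -0.29, SE 0.078, adjusted p = 0.0157). DMSO library 3 stood high, and the DMSO spread of 7.28% (coefficient of variation) was the widest of the 7 under this label. Exons of AC093512.2 on the same strand cover 42.3% of the exonic bases of ALDOA, and 37.9% of its 50-base stretches occur in another gene; AC093512.2 is not analysed here, so reads between the 2 cannot be divided. ALDOC had 452, 449 and 459.8 CPM with H3B-8800, against 539.7, 556 and 579 CPM with DMSO (log2 fold change -0.30, SE 0.060, adjusted p = 0.00398). None of its 50-base stretches occurred in another gene, and its fold was close to that of ALDOA.

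TPI1 had 2305, 2354 and 2448 CPM with H3B-8800, against 2803, 2852 and 3076 CPM with DMSO (log2 fold change -0.30, SE 0.066, adjusted p = 0.00597). GAPDH, a common loading control, had 17979, 17988 and 18539 CPM with H3B-8800, against 21954, 22966 and 23175 CPM with DMSO (log2 fold change -0.32, SE 0.071, adjusted p = 0.00572). Both have processed pseudogenes, 4 for TPI1 and 62 for GAPDH in the annotation, and 12.6% and 7.77% of their 50-base stretches occur in one; none of these pseudogenes is analysed here, so reads shared with them are uncertain. SPSB2, on the opposite strand, shares 0.5% of the exonic bases of TPI1 and had 13292 counts over the 18 libraries. The relative fall of GAPDH, 20.0%, was near that of TPI1, 18.6%.

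PGK1 had 9669.9, 9707 and 9852 CPM with H3B-8800, against 11156, 11581 and 11917 CPM with DMSO (log2 fold change -0.25, SE 0.054, adjusted p = 0.00575). The treated libraries lay within 0.987% (coefficient of variation) of one another. ATP7A, on the same strand, shares 1.8% of the exonic bases of PGK1 and had 41434 counts over the 18 libraries. PKM fell most, to 4094, 4029 and 4130.0 CPM with H3B-8800, against 5133, 5628 and 5311 CPM with DMSO (log2 fold change -0.39, 95% interval -0.56 to -0.23, SE 0.078, adjusted p = 0.00381). Its interval overlapped those of all the other 6, whose values ran between -0.32 and -0.20, and no difference between the enzymes was tested.

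**Figure D2:**
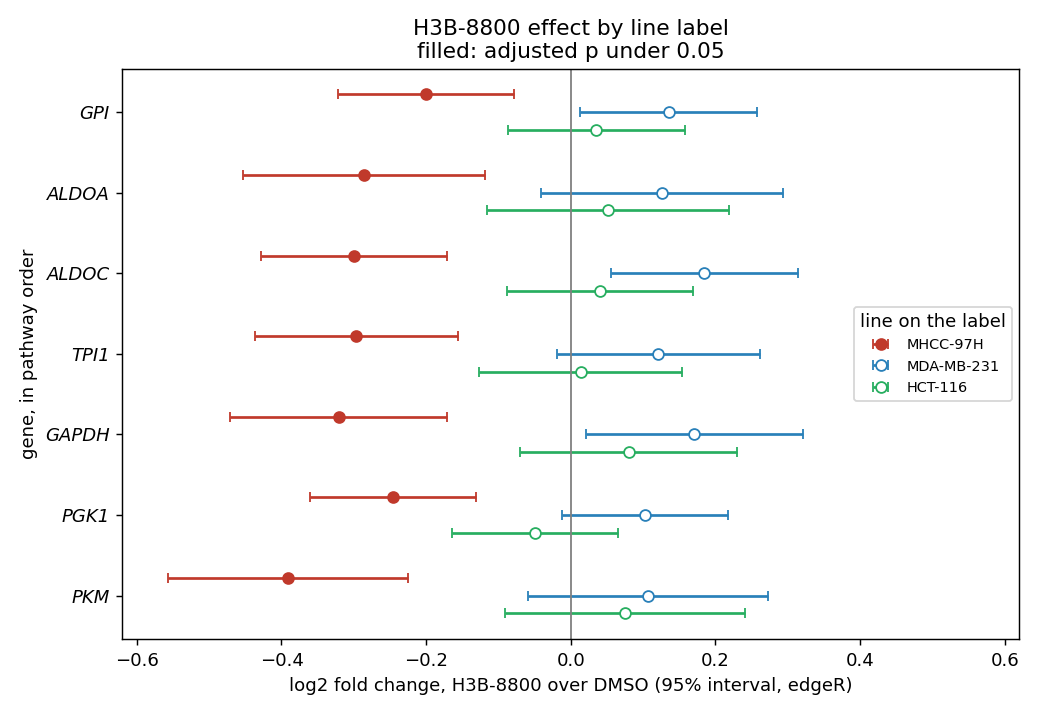
Log2 fold change of H3B-8800 over DMSO for each enzyme in pathway order, with 95% intervals from edgeR and one colour per line label; filled points passed an adjusted p of 0.05. All 7 points under MHCC-97H lie between -0.39 and -0.20, those under MDA-MB-231 between 0.10 and 0.18, and those under HCT-116 between -0.05 and 0.08.

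The size of these falls moved with the scaling and with removal of the trends on GC content and length. TMM factors were 0.952 to 0.967 in H3B-8800 libraries and 0.860 to 0.891 in DMSO libraries of this label; with library totals alone the 7 values moved up by 0.13, all stayed below 0, and 3 kept their calls, ALDOC (-0.17), GAPDH (-0.19) and PKM (-0.26), where 2.43% of all genes were called lower. Over all genes called, 46.7% were higher with TMM and 87.8% with library totals. Fold changes across 14223 genes also followed GC content (Spearman's rho -0.52 across genes, which are not independent replicates) and exonic length (rho 0.36) under this label. After removal of both trends, with 8.14% of all genes called lower, 3 enzymes were called, GPI at -0.27 (adjusted p = 0.0153), PGK1 at -0.42 (adjusted p = 0.0113) and PKM at -0.40 (adjusted p = 0.00542). The other 4 then stood at -0.10 for ALDOA (adjusted p = 0.240), -0.06 for ALDOC (adjusted p = 0.310), -0.05 for TPI1 (adjusted p = 0.333) and -0.07 for GAPDH (adjusted p = 0.164). Longest transcripts of ALDOC, TPI1 and GAPDH had the highest GC content of the 7, at 56.8%, 57.4% and 58.8%, and that of PGK1 the lowest, at 43.3%. PKM was the one enzyme called under all 3 settings.

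**Figure D3:**
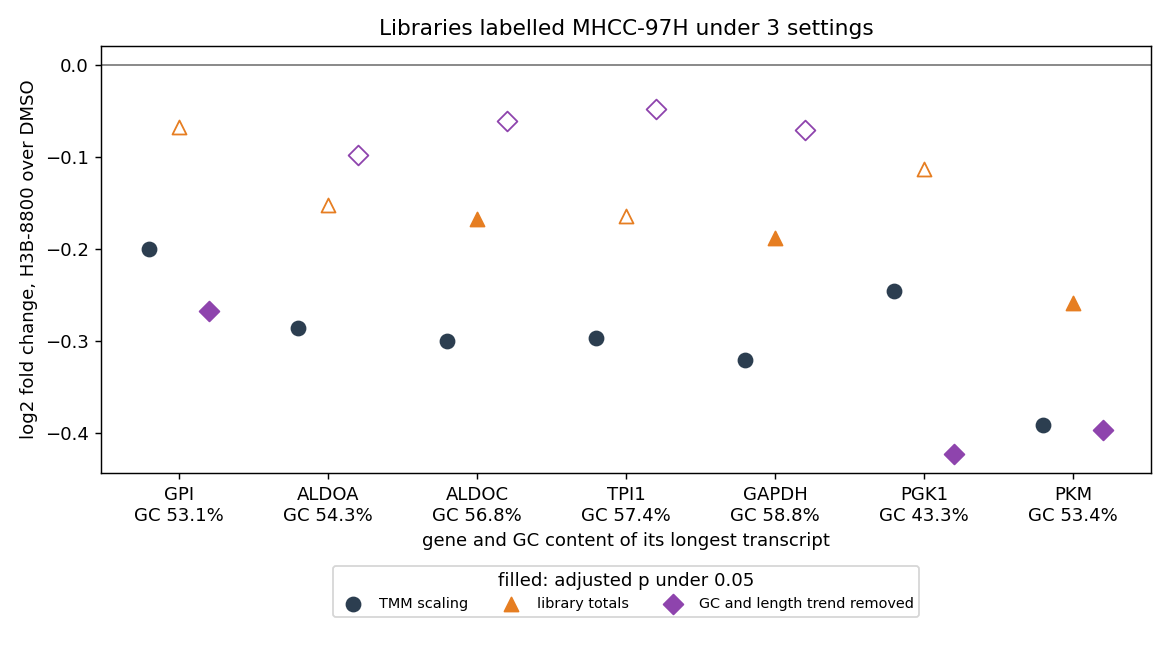
Log2 fold change of each enzyme under MHCC-97H with TMM scaling (circles), library totals (triangles) and the GC and length trend removed (diamonds); filled symbols passed an adjusted p of 0.05, and the GC content of the longest transcript stands under each name. PKM is filled in all 3 settings and lies at -0.26 to -0.40, while ALDOC, TPI1 and GAPDH lie between -0.05 and -0.07 with the trend removed.

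Calls under MHCC-97H rested in part on single libraries. GPI had an adjusted p of 0.0584 without DMSO replicate 2, 0.0680 without DMSO replicate 3 and 0.0658 without H3B-8800 replicate 3. ALDOA had 0.0814 without DMSO replicate 3 and 0.0541 without H3B-8800 replicate 3. The other 5 enzymes passed with any 1 of the 18 libraries left out.

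Under the MDA-MB-231 label none of the 7 was called in either direction, with 0.0211% of all genes called higher and 0.0141% lower. In all 7 the 3 treated libraries nevertheless lay above the 3 DMSO libraries, as did 8.67% of all genes. ALDOC had the largest value, with 197, 216 and 210.0 CPM in H3B-8800 libraries, against 178, 184 and 186 CPM in DMSO libraries (log2 fold change 0.18, 95% interval 0.06 to 0.31, adjusted p = 0.560). GAPDH had 10530.0, 10455 and 11457 CPM with H3B-8800, against 9470.3, 9397 and 9949.7 CPM with DMSO (log2 fold change 0.17, 95% interval 0.02 to 0.32, adjusted p = 0.652). GPI had 1803, 1858 and 1810.0 CPM with H3B-8800, against 1587, 1732 and 1662 CPM with DMSO (log2 fold change 0.14, 95% interval 0.01 to 0.26, adjusted p = 0.661). These 3 had an unadjusted p under 0.05, and in each the lowest treated library lay above the highest DMSO library.

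The other 4 had intervals that spanned 0. ALDOA had 1996, 2034 and 2089 CPM with H3B-8800, against 1832, 1860.2 and 1916 CPM with DMSO, a log2 fold change of 0.13. TPI1 had 1897, 1976 and 2052 CPM with H3B-8800, against 1792, 1782 and 1875 CPM with DMSO, a log2 fold change of 0.12. For these aldolase and isomerase messages the values did not overlap but the adjusted p was 0.786 and 0.746. PGK1 had 4291, 4389 and 4557 CPM with H3B-8800, against 4013, 4048 and 4265 CPM with DMSO, a log2 fold change of 0.10. PKM had 4904, 4696 and 5038 CPM with H3B-8800, against 4467, 4484 and 4643 CPM with DMSO, a log2 fold change of 0.11. Adjusted p was 0.732 for PGK1 and 0.816 for PKM, and their intervals reached 0.22 and 0.27. Fold changes across genes followed GC content (Spearman's rho 0.31) and exonic length (rho -0.16) under this label, with signs opposite to those under MHCC-97H. Under HCT-116 these were 0.18 and -0.12. With both trends removed the 7 values under MDA-MB-231 ran from 0.077 to 0.17. The part of base composition in these values was not tested. With the replicate number as a block in edgeR, none of the 7 was called under MDA-MB-231 (adjusted p 0.0985 to 0.354).

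Under the HCT-116 label none of the 7 was called, with 0.0281% of all genes called higher and 0.00703% lower, and treated and DMSO libraries overlapped in all 7; over all genes, 3.29% had every treated library below every DMSO library and 3.71% above. GAPDH had 9723, 12013 and 9845 CPM with H3B-8800, against 9439, 10709 and 9726 CPM with DMSO (log2 fold change 0.08, 95% interval -0.07 to 0.23, adjusted p = 1). PKM had 4491, 5855 and 4706 CPM with H3B-8800, against 4453, 5109.8 and 4721 CPM with DMSO (log2 fold change 0.08, 95% interval -0.09 to 0.24). Replicate 2 was the highest of its group in both genes and both treatments, and the spread within a group exceeded the gap between groups. A block on the replicate number in edgeR takes out what same numbers share. With it none of the 7 was called under HCT-116 either (adjusted p 0.677 to 0.987).

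ALDOA had 1876, 2351 and 1944 CPM with H3B-8800, against 1854, 2179 and 1920.4 CPM with DMSO, a log2 fold change of 0.05. ALDOC had 197, 230.2 and 213 CPM with H3B-8800, against 194, 224 and 205 CPM with DMSO, a log2 fold change of 0.04. Both aldolases, like GAPDH, stood a little higher in treated libraries of each number, by less than their spread. GPI had 1758, 1977 and 1845 CPM with H3B-8800, against 1639, 1938 and 1867 CPM with DMSO, a log2 fold change of 0.04. TPI1 had 1816, 2185 and 1863 CPM with H3B-8800, against 1849, 2076 and 1884 CPM with DMSO, a log2 fold change of 0.014 that turned to -0.0044 with library totals and -0.014 without the GC and length trend. PGK1 was the one enzyme with a negative value, at 4208, 4694 and 3940.5 CPM with H3B-8800, against 4317, 4611 and 4362 CPM with DMSO, a log2 fold change of -0.05 with an interval of -0.16 to 0.07. Without H3B-8800 replicate 2, 6 of these values changed sign, among them GAPDH at -0.03 and PKM at -0.06.

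Fitted together with label as a term, the 12 libraries of these 2 labels gave log2 fold changes of 0.03 for PGK1 to 0.13 for GAPDH. None of the 7 was called (adjusted p 0.746 to 0.903), where 1 of 13284 genes was called higher (0.00753%) and 0 lower. The interval for GAPDH ran from -0.0021 to 0.26 and that for PKM from -0.04 to 0.23. No enzyme had an unadjusted p under 0.05 in this fit, and DESeq2 called none of the 7 either.

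The H3B-8800 effect differed between the labels. Tested over the 3 labels at once, all 7 enzymes had an interaction with an adjusted p under 0.05, as did 15.4% of all genes. ALDOC had the smallest adjusted p, 0.0102, and ALDOA the largest, 0.0386. The pairwise test set MHCC-97H below MDA-MB-231 for all 7, where 9.67% of all genes were called lower; the difference in log2 fold change was -0.50 for PKM (SE 0.11, adjusted p = 0.00990), -0.49 for GAPDH (SE 0.10, adjusted p = 0.00789) and -0.48 for ALDOC (SE 0.086, adjusted p = 0.00514). It was smallest for GPI, at -0.34 (SE 0.081, adjusted p = 0.0137). Against HCT-116, 4 of 7 were called lower, where 6.18% of all genes were: PKM at -0.47 (adjusted p = 0.0215), GAPDH at -0.40 (adjusted p = 0.0238), ALDOC at -0.34 (adjusted p = 0.0242) and TPI1 at -0.31 (adjusted p = 0.0417). ALDOA at -0.34 (adjusted p = 0.0556), GPI at -0.24 (adjusted p = 0.0649) and PGK1 at -0.20 (adjusted p = 0.0953) missed the threshold. With the replicate number as a block under every label, all 7 were called against HCT-116, with adjusted p between 0.000805 and 0.0174. That block also pairs libraries by number under MHCC-97H, where numbers were not read as pairs. Between MDA-MB-231 and HCT-116 none of the 7 differed (adjusted p 1.00 each, 0 of 7 at an unadjusted p under 0.05), and 0.0211% of all genes were called higher and 0.0141% lower.

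These tests of the difference moved with scaling and with single libraries. The interaction called 4 enzymes with upper-quartile scaling (ALDOC, TPI1, GAPDH and PKM), 3 with library totals (ALDOC, GAPDH and PKM) and 4 after removal of the GC and length trend (GPI, GAPDH, PGK1 and PKM). GAPDH and PKM are in all 3 of these sets. Without MHCC-97H DMSO replicate 2 it called 2 of the 7. It called 3 without MHCC-97H DMSO replicate 3, 3 without H3B-8800 replicate 1 or 2 of that label, and 4 without MDA-MB-231 DMSO replicate 1. The 4 calls against HCT-116 became 0 without MHCC-97H DMSO replicate 2, HCT-116 DMSO replicate 1 or HCT-116 DMSO replicate 3. They became 1 without MHCC-97H DMSO replicate 3 or H3B-8800 replicate 1 or 2 of MHCC-97H, and 2 without HCT-116 H3B-8800 replicate 2. They became 6 without DMSO replicate 2 or treated replicate 1 or 3 of HCT-116.

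Deviations of the 7 enzymes within a group were widest under HCT-116. HCT-116 replicate 2 stood above its group mean for all 7 enzymes in treated and in DMSO cells, by 0.16 and 0.10 log2 units on average. HCT-116 replicate 1 stood below it for all 7 in both, by 0.10 and 0.09. Same-numbered libraries labelled MDA-MB-231 also deviated alike, by less. There replicate 1 averaged -0.036 with H3B-8800 and -0.032 with DMSO, and replicate 3 averaged 0.039 and 0.035. Under MHCC-97H replicate 1 averaged -0.0022 and -0.052, and replicate 3 averaged 0.0044 and 0.048. Deviations from group means correlated across the 18 libraries between every pair of the 7, with Pearson's r of 0.49 to 0.94 and a median of 0.81 over 21 pairs. Across the 6 MHCC-97H libraries alone r ran from -0.039 to 0.98 with a median of 0.56, and was lowest for GPI with TPI1 (-0.039) and for ALDOA with PKM (-0.025). These points share library, depth and base composition, and groups of 3 libraries make deviations dependent, so r is a description. The spread was widest under HCT-116, with median coefficients of variation of 10.3% in treated and 6.94% in DMSO libraries. It was 3.53% and 2.79% under MDA-MB-231 and 1.77% and 3.54% under MHCC-97H.

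**Figure D4:**
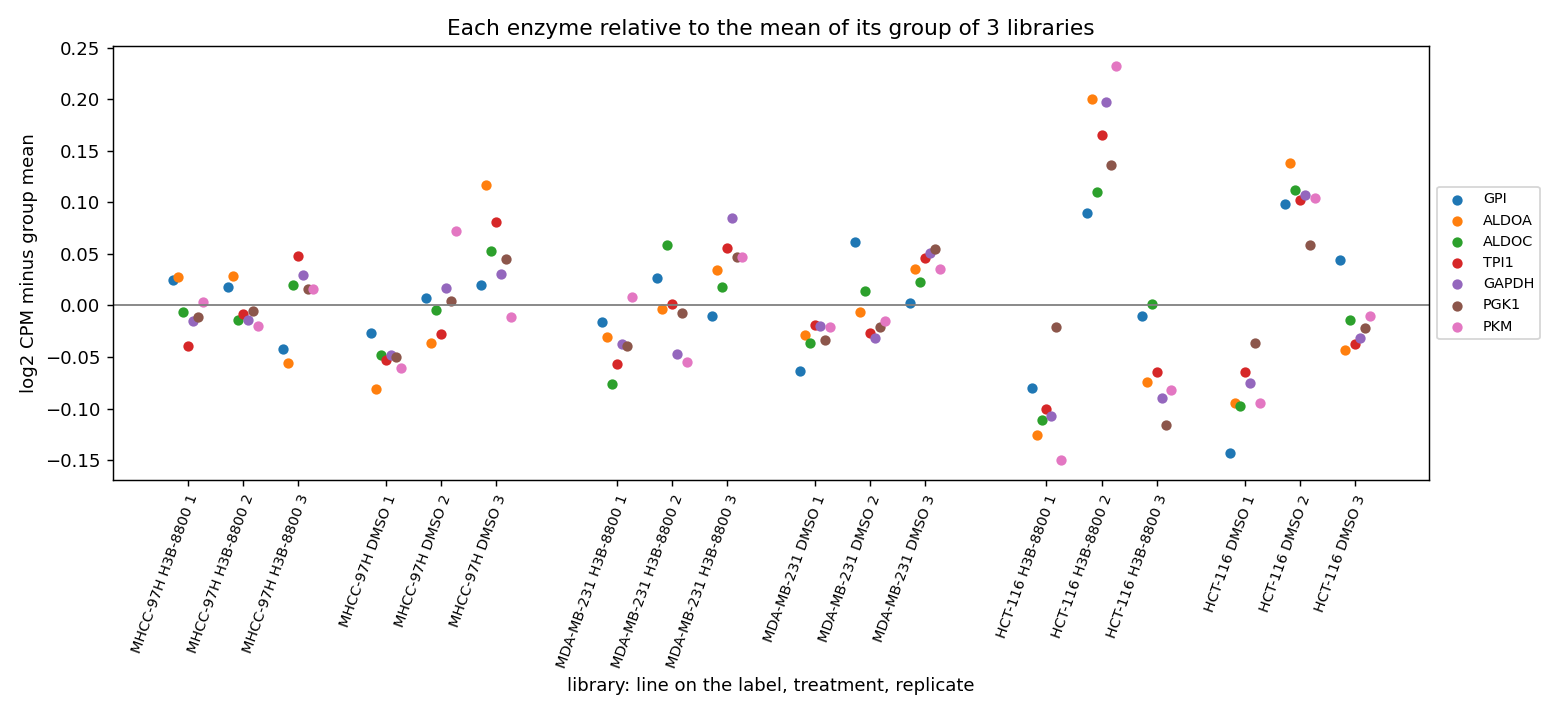
Log2 CPM of each enzyme minus the mean of its group of 3 libraries, per library, with H3B-8800 left of DMSO under each line label and one colour per enzyme. All 7 enzymes lie above 0 in replicate 2 of both HCT-116 groups and below 0 in replicate 1 of both.

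Taken as deviations from the mean of a label over 18 libraries, the gene most like the mean of the 7 enzymes was EEF1G, a subunit of the translation elongation factor, at r = 0.988 among 9225 genes averaging at least 10 CPM. IMPDH2, an enzyme of guanine nucleotide synthesis, followed at 0.983, then AHCY, which hydrolyses S-adenosylhomocysteine, at 0.982, PFKP, the platelet phosphofructokinase, at 0.982, and ALDH3B1 at 0.981. Of these 5 only PFKP belongs to glycolysis. For single enzymes the nearest genes were H2AZ2 for GPI (0.928), SSR2 for ALDOA (0.970), SF3B2 for ALDOC (0.979), EEF1G for TPI1 (0.986), SLC25A5 for GAPDH (0.985), EIF4H for PGK1 (0.982) and SLC25A6 for PKM (0.976). The next 2 were CDK16 and ZNF777 for GPI, IMPDH2 and PSMD4 for ALDOA, CDK16 and FLOT1 for ALDOC, AHCY and EEF2 for TPI1, EEF1G and AHCY for GAPDH, DDIT4 and SLC6A8 for PGK1, and PFKP and KRT18 for PKM. The treatment effect under MHCC-97H is part of these values.

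Most other enzymes of the pathway also fell under MHCC-97H. Of 22 further glycolysis enzymes 17 were tested. Of these, 14 were called lower, 0 higher and 3 (GAPDHS, LDHC and PGAM4) neither, where 14.7% of all genes were called lower. The median log2 fold change of the 17 was -0.49, beside -0.30 for the 7. ENO2, the neuronal enolase, averaged 179 ± 22.2 CPM with H3B-8800 and 533 ± 17.7 CPM with DMSO (log2 fold change -1.57, SE 0.069, adjusted p = 6.6e-09). HK2, the inducible hexokinase at the entry of the pathway, averaged 1057 ± 190 and 2889.9 ± 55.7 CPM in the same order (log2 fold change -1.45, SE 0.18, adjusted p = 0.00054). LDHB, a lactate dehydrogenase, averaged 391 ± 15.9 and 786 ± 11.3 CPM (-1.01, SE 0.070, adjusted p = 1.4e-06), and HK1 450.4 ± 123 and 911 ± 36.1 CPM (-1.02, SE 0.14, adjusted p = 0.000974). ENO1, the enolase named in the study's title, averaged 3848 ± 1336 CPM with H3B-8800 and 7940.3 ± 2397 CPM with DMSO (-1.05, SE 0.21, adjusted p = 0.00407). The values of these 5 enzymes lay below those of all the 7, and ENO1 missed the threshold when its 6 libraries were fitted alone (adjusted p = 0.108). With all 18 libraries, the 5 calls remained with library totals and after the GC and length trend was taken out; 8 and 10 of the 17 were called lower under those settings, with 2.43% and 8.14% of all genes. From the 6 libraries labelled MHCC-97H alone, 9 of the 17 were called lower, with 13.6% of all genes. PGK2 and PKLR, paralogs of PGK1 and PKM, were not tested for low counts, and GAPDHS, the sperm form of GAPDH, averaged 0.391 ± 0.093 and 0.509 ± 0.094 CPM.

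**Figure D5:**
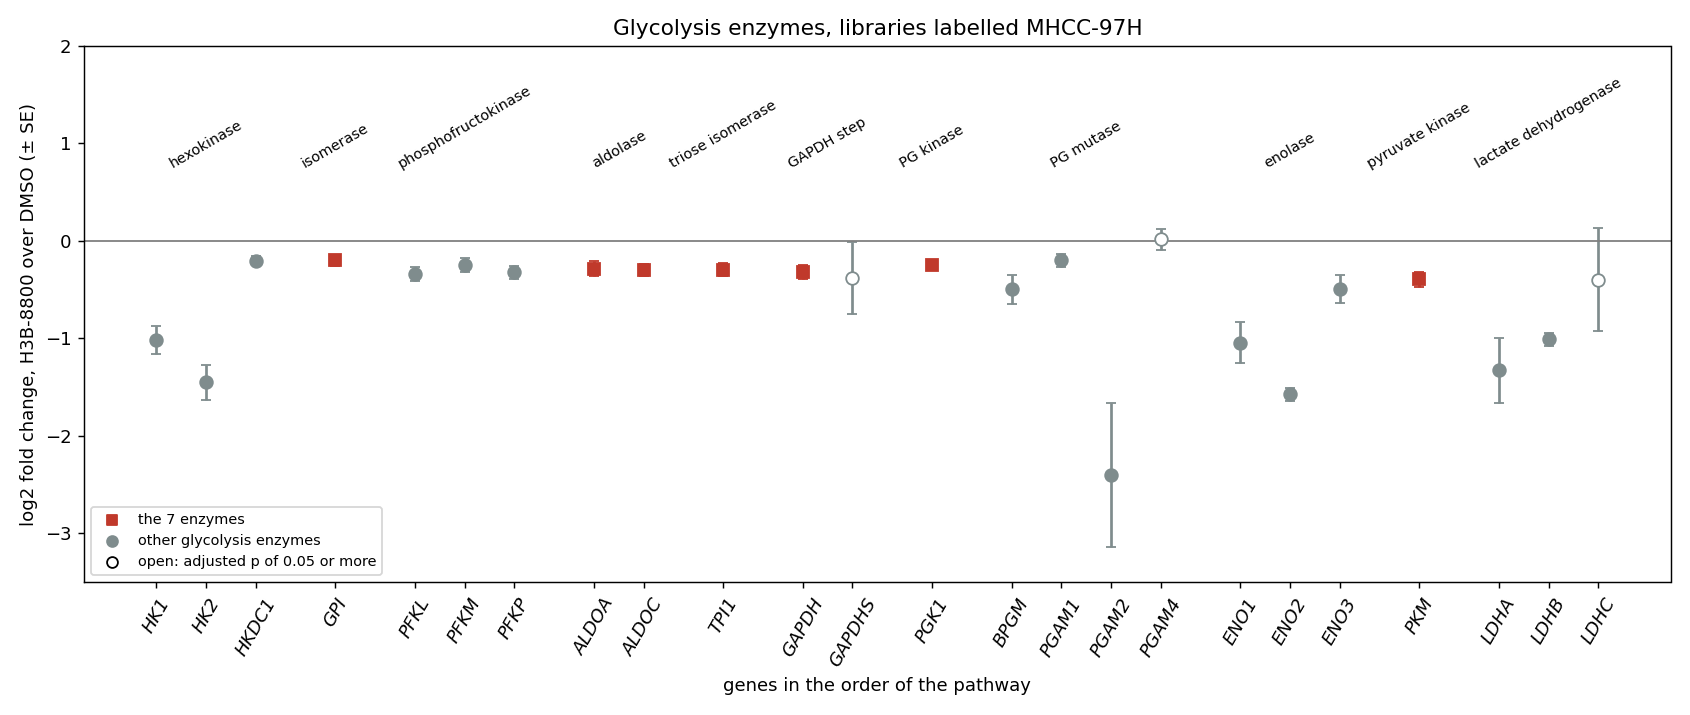
Log2 fold change of H3B-8800 over DMSO with its SE under MHCC-97H for the 7 enzymes (red squares) and the tested other glycolysis enzymes (grey circles), in pathway order; filled symbols passed an adjusted p of 0.05. The 7 lie between -0.39 and -0.20, while ENO2 at -1.57, HK2 at -1.45 and LDHB at -1.01 lie lower. PGAM2, at -2.40 with a wide SE, averaged 10.6 ± 2.02 CPM with H3B-8800 and 56.2 ± 57.9 CPM with DMSO.

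Genes that bring glucose in, take lactate out or set the pace of phosphofructokinase were split. Of 11, 9 were tested, 2 were called higher and 4 lower under MHCC-97H (median log2 fold change -0.21), where 12.9% of all genes were called higher and 14.7% lower. PFKFB2, a kinase and phosphatase that makes the activator fructose 2,6-bisphosphate, averaged 39.2 ± 3.35 CPM with H3B-8800 and 25.4 ± 4.16 CPM with DMSO (log2 fold change 0.63, SE 0.14, adjusted p = 0.00661). SLC2A3, the glucose transporter GLUT3, stood at 0.25 (adjusted p = 0.00826), while PFKFB3 stood at -0.26 (adjusted p = 0.00937) and PFKFB4 at -0.21 (adjusted p = 0.0110). With library totals none of this list was called lower, and PFKFB3 stood at -0.13 and PFKFB4 at -0.07. With the trend on GC content and length removed, PFKFB2 stood at 0.29 and SLC2A3 at 0.13, and both kept their calls (adjusted p = 0.0307 and 0.0182). Genes of gluconeogenesis, which runs several of the 7 reactions backwards, gave 4 lower and 0 higher of 6 tested among 8 (median -0.31), with the same shares over all genes. The 4 were G6PC3 at -0.38, PC, the pyruvate carboxylase, at -0.37, PCK2, the mitochondrial PEP carboxykinase, at -0.34 and SLC37A4, the glucose 6-phosphate carrier, at -0.28. With library totals 1 of these 4 kept its call, PCK2 at -0.21 (adjusted p = 0.0480), and with the trend removed 1, G6PC3 at -0.30 (adjusted p = 0.0365).

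Of 7 regulators of PKM splicing, NEK2 was called higher (log2 fold change 0.22, adjusted p = 0.0430) and HNRNPA1, which represses the PKM1 exon, lower (-0.16, adjusted p = 0.0204), shares near those of all genes. RBM4 and PTBP1 stood at -0.28 each and were not called (adjusted p = 0.100 and 0.206). HNRNPA1 lost its call with library totals, at -0.03 (adjusted p = 0.766), and NEK2 with the trend removed, at 0.08 (adjusted p = 0.215). With that trend removed HNRNPA1 stood at -0.33 (adjusted p = 0.00185), and HNRNPA2B1, a related splicing repressor, was called lower at -0.30 (adjusted p = 0.00328), against 0.10 (adjusted p = 0.443) with TMM alone. Of 7 transcription factors of glycolysis genes, 2 were called higher and 0 lower, where 12.9% and 14.7% of all genes were. HIF1A, the oxygen-sensitive subunit of HIF-1, averaged 146 ± 4.24 CPM with H3B-8800 and 93.5 ± 10.7 CPM with DMSO (log2 fold change 0.64, SE 0.10, adjusted p = 0.00156). EPAS1, the HIF-2 subunit, averaged 361 ± 9.21 and 323 ± 15.0 CPM (0.16, adjusted p = 0.0108). SP1 at 0.43 (adjusted p = 0.0593) and ARNT at 0.10 (adjusted p = 0.424) were not called. HIF1A and EPAS1 kept their calls with library totals, at 0.77 and 0.29, and with the trend removed, at 0.42 and 0.19. Under HCT-116 and under MDA-MB-231 no gene of these lists was called in either direction.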

How the data were processed

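The authors deposited 1 table of raw read counts per Ensembl gene for the 18 libraries. Per the submitters' processing notes, fastp, HISAT2 and GRCh38 were used. How reads were counted, whether by strand, and the kit are not given in the sources here, so overlapping genes on either strand cannot be told apart. Groups came from the labels. Names, positions and lengths came from GENCODE 29, which held 20224 of the 20263 genes, and promoter windows from RefSeq.

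A model with 1 mean per group was fitted to the counts of all 18 libraries in edgeR 4.0.16 under R 4.3.3 (TMM, filterByExpr, estimateDisp, robust quasi-likelihood F test) on 14234 genes. Called means an adjusted p (Benjamini-Hochberg over all genes tested) under 0.05. Deviations used log2(CPM + 0.5). Alternatives were other scalings (relative log expression, upper quartile, library totals, scaling without the 7 enzymes), no filter or at least 50 counts in 3 libraries, a replicate block, removal of per-library GC and length trends (splines, 5 degrees of freedom) with and without the block, limma 3.58.1 voom, DESeq2 1.42.0, fits of 6 libraries alone and leaving out each library. The code was tested on simulated counts.

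The members and lists were chosen with earlier results of these data known. Named genes were the 7 enzymes, up to 4 tested genes per list in order of adjusted p under MHCC-97H, the 5 genes most like their mean and the 3 most like each, and genes overlapping them with counts; ENO1, PGAM2, HNRNPA2B1, FN1, VIM and TWIST1 were added after their values were seen. Same-numbered treated and DMSO libraries labelled HCT-116 deviated together across 9233 genes (r = 0.22, 0.49 and 0.19), so these numbers were read as possible pairs, although DMSO replicate 1 correlated at 0.25 with treated replicate 3. Values were -0.019, 0.12 and 0.044 under MHCC-97H and 0.14, 0.061 and 0.054 under MDA-MB-231. These were not read as pairs, although the 7 enzymes themselves deviated alike by number under MDA-MB-231. The replicate block nevertheless set same numbers as pairs under every label, so its results also rest on pairs not read as such here.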

Additional observations from a re-analysis of the deposited data

Results flagged for a closer look

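The H3B-8800 effect on each of the 7 enzymes differed between the line labels by the edgeR interaction test over 3 labels. Adjusted p was 0.0296 for GPI, 0.0386 for ALDOA, 0.0102 for ALDOC, 0.0210 for TPI1, 0.0137 for GAPDH, 0.0225 for PGK1 and 0.0156 for PKM. In libraries labelled MHCC-97H all 7 fell, at log2 fold changes of -0.39 to -0.20. In those labelled MDA-MB-231 the 7 values were 0.10 to 0.18, and in those labelled HCT-116 they were -0.05 to 0.08, with no call under either label. Removing the trend on GC content and length left an adjusted p under 0.05 for 4 of the 7, and library totals for 3; the part of base composition in these differences was not tested further.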

How the results depend on the processing

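Under MHCC-97H the 7 enzymes kept their direction in all 12 other settings and with any 1 library left out. The count called lower, 7, was 3 with library totals and 3 once the GC and length trend was removed, alone or with the replicate block, and 5 to 7 with 1 library left out. All genes called, 3922, became 2179 with that trend removed and 2141 to 4455 with 1 library left out.

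For the interaction, 7 enzymes became 4 with upper-quartile scaling, 3 with library totals, 4 with the trend removed and 2 to 7 with 1 library left out; 2197 genes became 3585 with the block, 1079 with the trend removed and 565 to 2784. For MHCC-97H minus MDA-MB-231, 7 enzymes became 4 with library totals; 2871 genes became 1492 with the trend removed and 1470.0 to 3661 with 1 left out. For MHCC-97H minus HCT-116, 4 enzymes became 1 with upper-quartile scaling, library totals or the trend removed, 7 with the block and 0 to 6 with 1 left out; 1878 genes became 3320.0, 871 and 322 to 2841. The block changed no other count of enzymes by over 1.5 times.

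DESeq2 called more genes elsewhere: 49 against 5 under MDA-MB-231 (14 from its 6 libraries alone, 4 to 8 with 1 left out), 22 against 5 under HCT-116 (1 alone, 3 to 15), 26 against 5 for the difference of these labels (5 to 9), 23 against 5 for their DMSO libraries (8 with voom) and 31 against 1 over 12 libraries (1 to 2).

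Signs that changed belong to small values. TPI1 under HCT-116 stood at -0.0044 with library totals, -0.014 with the trend removed and -0.014 with the block added. With 1 library left out, values under HCT-116 ran from -0.033 to 0.085 for GPI, -0.063 to 0.12 for ALDOA, -0.024 to 0.099 for ALDOC, -0.082 to 0.067 for TPI1, -0.033 to 0.14 for GAPDH, -0.13 to 0.0068 for PGK1 and -0.058 to 0.15 for PKM. PKM in DMSO libraries, MHCC-97H minus MDA-MB-231 and minus HCT-116, stood at -0.040 and -0.088 with library totals. For MDA-MB-231 minus HCT-116, the difference of the effect on PKM ran from -0.043 to 0.17 with 1 left out. In DMSO libraries GAPDH ran from -0.090 to 0.0033 with 1 left out. The block gave 0.012 for GAPDH and 0.046 for PKM there (0.051 with the trend removed). With the block this difference is taken at replicate 1 of each label, not at group means, so these values are not comparable with the main ones. The cause of the other sign changes was not tested.

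Depth limits ALDOC most, the enzyme with the fewest counts; groups of 3 libraries limit all 7. Adjusted p of 1 under HCT-116 leaves intervals of up to 0.24 log2 units.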
